A study of Mus musculus with 12 samples.

Results

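Estrogen receptor beta is the main estrogen receptor of ovarian granulosa cells, and the comparison described here asked how granulosa cells without it differed from wild-type cells 4 h after an ovulatory stimulus. It used 6 of the study's 12 arrays, chosen by their labels alone: 3 labelled bERKO with hCG and 3 labelled WT with hCG. Both groups were granulosa cells taken by laser microdissection from preovulatory follicles of 3-week-old mice. All of these mice had received pregnant mare serum gonadotropin (PMSG), which acts like follicle-stimulating hormone, and 48 h later human chorionic gonadotropin (hCG), which acts like luteinizing hormone, and cells were collected 4 h after hCG. The WT group carried the receptor, and the bERKO group was the knockout of it. The label gives the genotype only as bERKO, so how the gene was disrupted, the strain and the cells that lacked the receptor are not stated in the sources used here. Each array was made from 25 ng of total RNA that was amplified before labelling. The labels name the 3 arrays per group as biological replicates but not how many animals each stands for, so p-values measure the spread between these samples. The other 6 arrays, 3 WT and 3 bERKO collected after PMSG alone, entered the fit to estimate the spread of each gene and served for 1 further comparison.

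In a follicle that is ready to ovulate, granulosa cells respond to luteinizing hormone through cyclic AMP and protein kinase A. Within hours they release EGF-like factors, switch on the progesterone receptor and prostaglandin synthesis, build a hyaluronan matrix around the oocyte, and begin to turn into luteal cells that make progesterone. At the same time they shut down genes of the growing follicle, such as the FSH receptor, and the natriuretic peptide that holds the oocyte in meiotic arrest. Estrogen receptor beta is known to be needed for full follicle maturation and for an efficient ovulatory response in mice.

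Levels are given as log2(intensity + 16) after quantile normalization, a scale whose floor is 4 and on which a difference of 1 is a 2-fold difference for bright genes and less than the true fold for dim ones. A change is the mean of the 3 bERKO arrays minus the mean of the 3 WT arrays, with its standard error (SE), and a gene is said to have changed when its p, adjusted over all 18193 genes with limma, was under 0.05. The arrays were not equally good. WT hCG replicate 1 had a Gapdh 3'/5' signal ratio, which rises with RNA degradation or incomplete amplification, of 32.2, against 4.72 to 11.2 on the other hCG arrays. It also correlated less well with the other WT hCG arrays (Pearson r across genes, which are not independent, 0.933 and 0.926) than those did with each other (0.967), and on the first principal component of all arrays it lay at -24.3, between the PMSG arrays (-69.5 to -36.1) and the other hCG arrays (27.2 to 95.7). Progesterone receptor, Pgr, read 5.21, 13.10 and 13.38 on WT hCG replicates 1 to 3 and 14.06, 13.98 and 14.04 on the bERKO arrays. The counts are therefore given with that array and without it, and the named calls lost without it are identified. Among the PMSG arrays bERKO PMSG replicate 3 stood apart, with a Gapdh 3'/5' ratio of 23.7, against 4.91 to 6.33 on the other PMSG arrays, and at -104.8 on the second principal component, where the other arrays lay between -12.0 and 39.2. Esr2, which encodes estrogen receptor beta, is measured by 1 probe set, and it read 8.68, 9.52 and 8.78 in WT and 8.34, 8.13 and 8.53 in bERKO after hCG. The groups did not overlap, but the change of -0.66 (SE 0.37) did not pass (limma adjusted p = 0.397). The sources used here do not place this probe set inside or outside the disrupted part of the gene, so it does not check the genotype. The 7 measured granulosa markers averaged 11.95, 11.66 and 11.83 on the WT arrays and 10.81 to 11.02 on the bERKO arrays. As a list they were thus well above the floor in both groups, which does not by itself settle cell identity.

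With all arrays, 562 genes passed, 3.09% of those tested: 282 were higher in bERKO (1.55%) and 280 were lower (1.54%). The genes that rose did so by a median of 2.27, with a range from 1.07 to 7.04, and those that fell did so by a median of 1.84. Leaving out WT hCG replicate 1 gave 141 calls (0.775%), 67 higher (0.368%) and 74 lower (0.407%), of which 137 had also been called with all arrays (0.753% of genes). The effect sizes moved less than the counts: without that array the same 282 and 280 genes had median changes of 2.02 and -1.73. For 182 of the 282 genes that rose, WT hCG replicate 1 was the lowest of the WT arrays (64.5%, against 32.5% of all genes), and for 168 of the 280 that fell it was the highest (60.0%, against 46.1% of all genes). The count depended as much on bERKO hCG replicates 1 and 2, with 143 and 172 calls without them, and less on bERKO hCG replicate 3 (255) and WT hCG replicate 2 (307). Of the 73 called genes named by rule in the text, 34 lost the call without WT hCG replicate 1, 35, 33 and 22 without bERKO hCG replicates 1, 2 and 3, 20 and 11 without WT hCG replicates 2 and 3, and 2 to 15 without any 1 of the PMSG arrays. Whichever of the 12 arrays was left out, 107 genes, 50 higher and 57 lower, were called. The balance of directions depended on scaling, with 50.2% of calls higher in bERKO after quantile normalization, 39.1% on the values as deposited and 66.5% with arrays centred on their medians. Groups that did not overlap were common, at 24.5% of all genes.

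**Figure D1:**
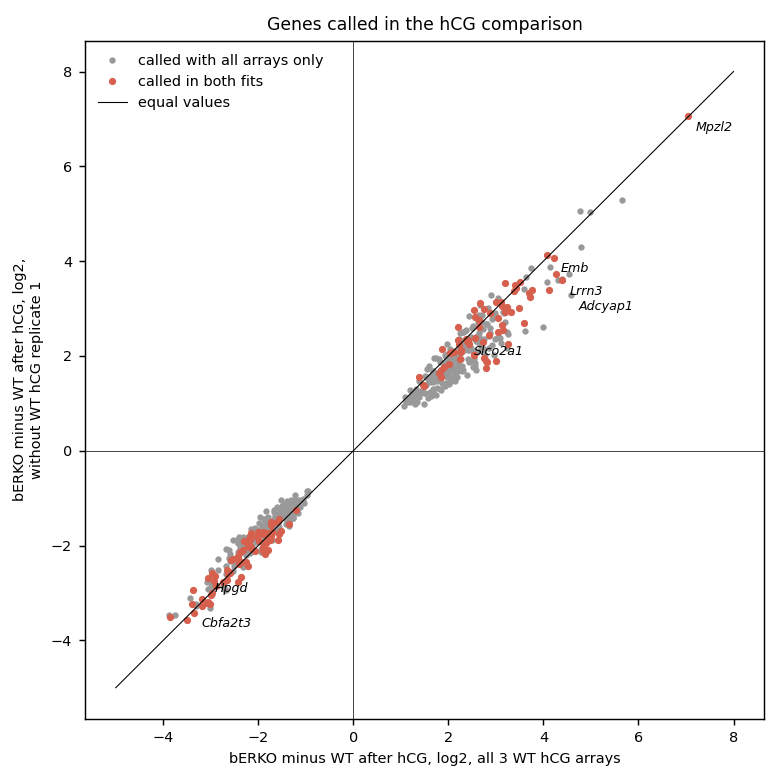
Change of each of the 562 called genes, bERKO minus WT after hCG on the log2(intensity + 16) scale, with all 3 WT hCG arrays (horizontal axis) and without WT hCG replicate 1 (vertical axis). Points are genes, red points are the 137 called in both fits, and the line marks equal values; most genes lie near the line, with Mpzl2 at the top right.

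The 12 rises described here were those with the largest rise that was called with and without WT hCG replicate 1. Mpzl2, an immunoglobulin-domain adhesion protein of epithelia also called epithelial V-like antigen, was at the floor in all WT samples, at 4.06, 4.04 and 4.03, and high in bERKO, at 10.82, 10.61 and 11.83. Its change of 7.04 (SE 0.52, limma adjusted p = 0.000334) was the largest of all genes, and all 3 of its probe sets were called. On the PMSG arrays of either genotype Mpzl2 lay between 4.12 and 6.39, so a high level was seen on the bERKO hCG arrays only. Bace2, a transmembrane aspartyl protease, read 5.30, 4.94 and 5.33 in WT and 9.65, 9.59 and 8.56 in bERKO, a rise of 4.08. Of its 5 probe sets 2 were called, with changes from 1.38 to 4.08. Emb, or embigin, an adhesion protein that partners monocarboxylate transporters, read 5.36, 4.30 and 7.29 against 10.29, 9.84 and 9.48, a rise of 4.22. The highest WT array was still more than 2 below the lowest bERKO array. Of the 3 Emb probe sets 1 was called, with changes from 0.81 to 4.22.

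Among the 12 were also 3 genes of leucine-rich repeat proteins known from neurons. Lrrn3 read 5.62, 7.32 and 8.74 in WT and 11.87, 11.37 and 11.62 in bERKO (change 4.40, SE 0.69, limma adjusted p = 0.00938). Lrrtm3, which organises synapses in neurons, read 6.11, 5.73 and 6.23 against 9.13, 9.74 and 9.75, and all 4 of its probe sets were called. Lrrn1 read 8.31, 8.30 and 8.31 against 12.29, 12.29 and 10.61, but its 3 probe sets disagreed, with changes from -0.51 to 3.42. The WT arrays were tight for Lrrn1 and Lrrtm3, whereas for Lrrn3 WT hCG replicate 1 was well below the other WT arrays. Snap91, a clathrin assembly protein of synaptic vesicle recycling, was nearly identical on the 3 bERKO arrays, at 10.72, 10.70 and 10.72, and spread from 5.14 to 7.81 in WT. Rab27a, a small GTPase that docks secretory vesicles, rose by 3.77 from 4.38, 6.07 and 4.97 to 9.57, 9.11 and 8.03. Of its 4 probe sets 3 were called, with changes from 0.64 to 3.77. Kcnj16, an inwardly rectifying potassium channel, rose by 3.40, and Rassf9, a Ras-association protein found on recycling endosomes, by 3.69. The second Rassf9 probe set had a change of 0.66 and was not called. Tchhl1, a trichohyalin-like protein known from skin, read 4.42, 4.86 and 7.18 in WT and 9.65, 9.39 and 10.20 in bERKO. Of the 12 genes, 2 had a WT mean under 5, close to the floor, so that their true ratio is larger than the change states. Of these 12 calls, 11 held whichever array was left out, the exception being Snap91 (limma adjusted p = 0.0502 without bERKO hCG replicate 1). In the interaction described below 10 of the 12 were also called, against 1.31% of all genes.

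The twelfth of these genes has a known place in the ovary. Hsd17b7 encodes an enzyme with 2 activities, conversion of estrone to estradiol and a 3-ketosteroid reductase step of cholesterol synthesis, and it is typical of luteal cells. It read 10.14, 10.31 and 10.01 in WT and 14.04, 14.09 and 12.47 in bERKO, a rise of 3.38 (SE 0.42, limma adjusted p = 0.00406) and of 3.37 without WT hCG replicate 1. Of the 4 Hsd17b7 probe sets 2 were called, with changes from 1.20 to 3.71. The bERKO arrays did not agree closely, with replicate 3 at 12.47 and the others above 14, but the lowest of them was still more than 2 above the highest WT array.

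The 12 largest falls were chosen by the same rule. Cbfa2t3, a transcriptional corepressor of the ETO family, fell with little spread within either hCG group. It read 11.24, 11.30 and 11.60 in WT and 8.12, 7.96 and 8.01 in bERKO, a change of -3.35 (SE 0.33, limma adjusted p = 0.00142). Bcl2l1, which encodes the survival protein BCL-XL, read 9.74, 9.17 and 9.97 against 6.45, 6.24 and 6.63 (change -3.19). That value comes from 1 of its 4 probe sets, the brightest, and the others ran up to 0.28, so the fall was not seen by every probe set. Eda2r, a TNF receptor family member that binds a form of ectodysplasin, read 8.58, 8.65 and 8.70 in WT, with an SD of 0.06, and 5.96, 5.86 and 5.10 in bERKO. Rassf2, a Ras-association protein that promotes cell death, read 8.74, 9.49 and 8.41 against 4.68, 6.11 and 5.34. In these 4 genes every bERKO array was at least 2 below every WT array.

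Tdrd5, a tudor-domain protein known from the piRNA pathway of male germ cells, had the largest fall among genes called in both fits, from 10.33, 9.25 and 9.34 in WT to 5.93, 6.15 and 5.26 in bERKO (change -3.86). Acacb, the acetyl-CoA carboxylase whose malonyl-CoA restrains mitochondrial fatty acid oxidation, read 8.76, 8.14 and 8.24 against 4.43, 5.61 and 6.26, although its dimmer probe set showed 0.28. St8sia1, the ganglioside GD3 synthase, read 8.48, 9.12 and 8.65 against 4.82, 5.67 and 6.50. Of its 3 probe sets 1 was called, with changes from -3.08 to -0.84. Wipf3 and Mtcl1, which bear on the actin and microtubule cytoskeleton, fell by 3.17 and 3.06. The second Mtcl1 probe set had a change of -1.03 and was not called. Cables1, a cyclin-dependent kinase adaptor, fell by 2.97, Nat8f3, an N-acetyltransferase of the Nat8 family, by 3.39, and Kirrel3, a nephrin-like adhesion protein, by 3.03. The second Nat8f3 probe set had a change of -1.94 and was not called. Kirrel3 was the 1 gene of these 12 whose call did not hold whichever array was left out (limma adjusted p = 0.0541 without bERKO hCG replicate 2), and its probe sets ranged from -3.03 to 0.68. In contrast to the genes that rose, the WT means of these 12 genes were all at 8 or more, and the bERKO means were above the floor.

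**Figure D2:**
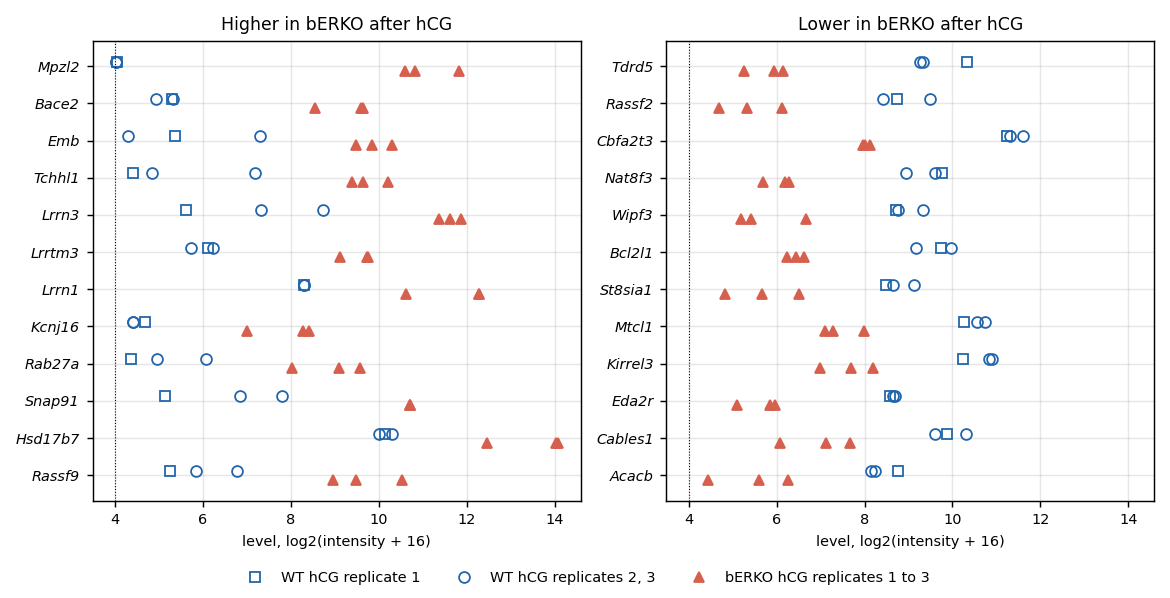
Level of the 12 genes with the largest rise (left) and the 12 with the largest fall (right) on each hCG array, as log2(intensity + 16); the dotted line at 4 is the floor. Open blue symbols are the WT arrays, with replicate 1 as a square, and red triangles are the bERKO arrays; for every gene shown the groups are separate, and the WT arrays of Mpzl2 lie on the floor.

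The gene lists below were chosen with earlier results of these data known, so their shares beside those of all genes are no independent result. Of 30 measured genes of gonadotropin receptors and cyclic AMP signalling, 2 rose and 2 fell (13.3%, against 3.09% of all genes). The list median was 0.19, against -0.06 for all genes. Fshr, the FSH receptor, read 12.32, 10.75 and 11.69 in WT and 8.92, 8.96 and 8.995 in bERKO (change -2.62, SE 0.50, limma adjusted p = 0.0207). The bERKO arrays were almost equal and every WT array was higher. Without WT hCG replicate 1 the change was -2.26 and did not pass (limma adjusted p = 0.0815). Both phosphodiesterases that were called, enzymes that break down cyclic AMP, rose. Pde4b read 7.64, 9.22 and 9.13 against 11.04, 11.17 and 11.40 and rose by 2.54, and the call held whichever array was left out, but 1 of its 6 probe sets was called and they ranged from -0.25 to 2.54. Pde3b read 8.06, 6.87 and 6.68 against 10.42, 10.10 and 8.72 and rose by 2.54, or by 2.97 without WT hCG replicate 1; without WT hCG replicate 2 or 3 or bERKO hCG replicate 1 or 2 it was not called (limma adjusted p from 0.0641 to 0.0989). Adcy9, an adenylyl cyclase, fell by 1.84 with all arrays and had a change of -1.27 without that array (limma adjusted p = 0.105). The genes of the protein kinase A subunits, Prkaca, Prkacb, Prkar1a, Prkar1b, Prkar2a and Prkar2b, had changes from -0.43 to 0.83 and none passed.

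Genes of the preovulatory granulosa cell were lower in bERKO where they were called. Of the 23 measured, 0 rose and 4 fell (17.4%), with a list median of -0.36, and 12 of the 23 had groups that did not overlap with bERKO lower, against 13.2% of all genes. Inhbb, the beta-B subunit of inhibin and activin, read 14.29, 14.10 and 14.65 in WT and 11.38, 11.35 and 12.09 in bERKO, a fall of 2.74 (SE 0.28, limma adjusted p = 0.0015) that both of its probe sets showed. The other subunits were not called: Inha had a change of 0.03 and Inhba of 0.01. Foxo1, a forkhead factor of growing-follicle granulosa cells, read 14.15, 13.91 and 14.23 against 11.75, 11.84 and 10.80, a fall of 2.64. Both calls held whichever array was left out. Nppc, the natriuretic peptide precursor that keeps the oocyte in meiotic arrest, read 13.06, 11.13 and 11.06 against 9.81, 8.55 and 9.29 (change -2.53), and the WT value of replicate 1 was nearly 2 above the others. Without that array the change was -1.88 and did not pass (limma adjusted p = 0.0937). Its receptor gene, Npr2, had a change of -1.14 and was not called (limma adjusted p = 0.145).

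Of 25 measured transcription factors of granulosa identity, 0 rose and 4 fell (16%), namely Cbfa2t3, Foxo1, Gata4 and Foxl2, with a list median of -0.52. Gata4, a zinc-finger activator of steroidogenic and inhibin genes, read 12.15, 11.39 and 11.30 in WT and 8.91, 8.45 and 9.76 in bERKO, a fall of 2.58 (SE 0.35, limma adjusted p = 0.00642) that was called for both probe sets and in every fit that left out 1 array. Foxl2, which maintains granulosa identity, read 11.93, 12.15 and 12.84 against 10.97, 11.02 and 9.81 (change -1.71). The Foxl2 change was -1.89 without WT hCG replicate 1 and missed the threshold (limma adjusted p = 0.0648). The related gene Gata6 had a change of 0.20, Nr5a1 of -0.55 and Nr5a2 of -0.52, none of them called. Esr1, the gene of estrogen receptor alpha, read 7.88, 8.07 and 7.42 in WT and 7.08, 6.14 and 6.41 in bERKO. The groups did not overlap and the change was -1.24, just outside the threshold (limma adjusted p = 0.0582).

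In the list of EGF-like ligands and cumulus matrix genes the calls that held without WT hCG replicate 1 were those of Slco2a1 and Hpgd, which act on prostaglandins. Slco2a1, the prostaglandin transporter, read 7.02, 7.32 and 7.14 in WT and 9.73, 9.48 and 9.42 in bERKO, a rise of 2.38 (SE 0.34, limma adjusted p = 0.00674), and all 4 probe sets were called. Hpgd, the dehydrogenase that inactivates prostaglandins, read 12.36, 11.37 and 11.06 against 8.47, 8.93 and 8.20, a fall of 3.06 (SE 0.37, limma adjusted p = 0.00349) that both probe sets showed. Both calls held whichever array was left out. Ptges, a prostaglandin E synthase, read 12.11, 10.70 and 12.11 in WT and 9.77, 10.37 and 8.93 in bERKO and fell by 1.95, with a change of -1.72 without WT hCG replicate 1 that did not pass (limma adjusted p = 0.137). Ptgs2, the inducible cyclooxygenase, read 8.18, 12.23 and 13.62 in WT and 14.21, 14.18 and 14.32 in bERKO. Its change was 2.89 with all arrays and 1.31 without WT hCG replicate 1, and neither passed (limma adjusted p = 0.175 and 0.407). The receptor gene Ptger4 read 6.35, 9.08 and 8.68 against 10.87, 11.06 and 11.56 and was not called (change 3.13, limma adjusted p = 0.0685).

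The wider list of EGF-like ligands and cumulus matrix genes had 7 calls among 22 measured (31.8%): 4 rose and 3 fell, with a list median of 1.95 that became 1.03 without WT hCG replicate 1, when 2 calls remained. Besides Slco2a1, the genes that rose were Cemip, a hyaluronan-binding protein that takes part in hyaluronan breakdown, Hapln1, which links hyaluronan to proteoglycan, and Il6, a cytokine made by cumulus cells. Cemip read 5.65, 5.39 and 5.56 in WT and 11.52, 11.47 and 8.55 in bERKO, where replicate 3 was about 3 below the other arrays, and the change was 4.98 (SE 1.03). Hapln1 read 4.36, 4.38 and 4.68 against 6.76, 6.65 and 6.18 (change 2.06), and Il6 was dim in both, at 4.04, 4.86 and 4.26 against 5.40, 6.13 and 5.76 (change 1.38). The third gene that fell, beside Hpgd and Ptges, was Itih5, a heavy chain of the inter-alpha-inhibitor family, with 11.65, 10.88 and 10.64 in WT and 8.23, 8.17 and 5.48 in bERKO. None of Cemip, Hapln1, Il6 and Itih5 was called without WT hCG replicate 1, with changes of 5.04, 1.999, 1.20 and -3.46 and limma adjusted p between 0.0867 and 0.119. The classical cumulus genes Has2, Ptx3 and Tnfaip6 had changes of 2.65, 3.87 and 3.29, and none passed. Has2, the hyaluronan synthase, shows the pattern: it read 6.19, 9.05 and 8.71 in WT and 10.23, 10.36 and 11.30 in bERKO. WT hCG replicate 1 was far below the other WT arrays, and the change became 1.75 without it.

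Of 25 measured ovulatory factors, 3 rose and 0 fell (12%), with a median of 0.60. They were Bcl6, a zinc-finger repressor, at 8.71, 9.05 and 9.15 in WT and 10.79, 10.83 and 10.69 in bERKO, and the AP-1 subunits Fosl1 and Fosb. Fosl1 read 4.66, 5.77 and 6.70 against 8.29, 8.33 and 8.58, and Fosb read 4.62, 6.36 and 5.79 against 7.01, 7.77 and 8.50. None of the 3 passed when WT hCG replicate 1 was left out, with changes of 1.66, 2.17 and 1.69 and limma adjusted p of 0.0746, 0.0885 and 0.139. The other AP-1 genes Fos, Jun, Junb, Jund and Fosl2 had changes from -0.24 to 0.26. Of 26 immediate early and MAP kinase feedback genes, 0 were called by limma and 15 had an unadjusted p under 0.05, against 17.5% over the whole table, and their median was 1.33, or 1.03 without WT hCG replicate 1, against -0.06 and -0.01 for all genes. In 18 of the 26 the groups did not overlap with bERKO higher, against 11.4% of all genes. The members with the smallest p were Ier5, at 8.59, 10.49 and 10.78 against 11.54, 11.67 and 12.29, and Spry2, an inhibitor of receptor tyrosine kinase signalling, at 7.34, 9.32 and 9.83 against 10.87, 10.97 and 11.45. In both, WT hCG replicate 1 was the lowest array by nearly 2.

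Among 18 measured ovulatory proteases and inhibitors 1 gene rose (5.56%, list median 1.08). Adamts4, an aggrecan- and versican-cleaving protease, read 5.95, 8.32 and 8.54 in WT and 10.45, 11.26 and 10.41 in bERKO (change 3.10, limma adjusted p = 0.047), and its change of 2.28 without WT hCG replicate 1 did not pass (limma adjusted p = 0.143). Adamts1, the protease that depends on the progesterone receptor, had a change of 1.04 (limma adjusted p = 0.101).

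With all arrays, sterol synthesis was the metabolic pathway with the most calls. When WT hCG replicate 1 or bERKO hCG replicate 1 or 2 was left out, it had 2 calls, as many as steroid synthesis. Of 26 measured genes of cholesterol synthesis, uptake and SREBP control, 22 had a change above 0, against 8350 of all 18193 genes. Of the 26, 8 rose and 0 fell (30.8%, against 3.09% of all genes), with a median of 1.08. They act along the pathway: Idi1 and Fdps in the isoprenoid steps, Sqle, which makes squalene epoxide, Cyp51, Hsd17b7 and Dhcr7 in the conversion of lanosterol to cholesterol, Stard4, a sterol carrier, and Insig1, which retains the SREBP-SCAP complex in the endoplasmic reticulum and is itself a target of SREBP. Insig1 read 10.67, 11.39 and 11.66 in WT and 13.16, 13.21 and 12.86 in bERKO, a rise of 1.84 (SE 0.29, limma adjusted p = 0.00965). Idi1 read 10.94, 11.55 and 11.38 against 13.48, 13.30 and 12.67, and Stard4 read 8.86, 9.10 and 8.98 against 10.83, 10.61 and 10.23. Fdps had the larger change of 2.43, Cyp51 had 1.52, Dhcr7 had 1.36 and Sqle had 1.16. Insig1 and Hsd17b7 were called whichever array was left out. The other 6 were not called when WT hCG replicate 1 was left out, although their changes, from 1.10 to 1.88, stayed above 0, and the list median was 1.12. The PMSG arrays place the levels: Insig1 read 12.95, 12.55 and 12.86 in WT and 12.41, 12.72 and 12.79 in bERKO after PMSG alone, so on the hCG arrays the WT values were below both PMSG groups and the bERKO values near them. Srebf2, the SREBP that controls these genes, had a change of 1.83 and was not called (limma adjusted p = 0.102).

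Steroid synthesis genes were mixed. Of 19 measured, 2 rose and 1 fell (15.8%), and the list median was -0.38, or 0.13 without WT hCG replicate 1, and its sign also turned with the filter on dim genes (0.10), the mean of probe sets (0.027) and array weights (0.039). Beside Hsd17b7, Scarb1, the HDL receptor that supplies cholesterol, rose by 1.20, from 11.77, 11.94 and 12.13 to 13.25, 13.16 and 13.02; without that array its change was 1.11 (limma adjusted p = 0.0892). Akr1c14, a 3-alpha-hydroxysteroid dehydrogenase that metabolises progestins and androgens, fell by 1.60 (SE 0.22, limma adjusted p = 0.00642), from 13.71, 13.48 and 13.31 to 11.92, 11.97 and 11.80. All its bERKO arrays lay within 0.2 of each other and the fall was called whichever array was left out. Star, which moves cholesterol into mitochondria, read 10.50, 14.33 and 14.33 in WT and 14.72, 14.66 and 14.90 in bERKO, and Cyp11a1, the side-chain cleavage enzyme, read 8.68, 11.76 and 12.12 against 13.66, 13.75 and 13.81. Neither passed (limma adjusted p = 0.327 and 0.162), and for both WT hCG replicate 1 was more than 3 below the other WT arrays. Without it the changes were 0.43 and 1.80. Cyp17a1, the theca enzyme of androgen synthesis, had a change of -0.38 with overlapping groups. In fatty acid synthesis and lipid storage 2 of 26 rose (7.69%, median 0.21): Lipg, the endothelial lipase, at 5.45, 7.44 and 6.44 in WT and 12.17, 11.92 and 9.61 in bERKO, and Me1, malic enzyme, at 10.41, 12.04 and 12.15 against 13.28, 13.37 and 13.15. Without WT hCG replicate 1 their changes were 4.30 and 1.17 and did not pass (limma adjusted p = 0.0819 and 0.0706).

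Of 26 measured junction and adhesion genes, 4 rose and 1 fell (19.2%, median 0.34), and of 30 neuropeptide, synaptic and axon guidance genes, 6 rose and 0 fell (20%, median 1.36, or 1.28 without WT hCG replicate 1), against 3.09% of all genes called. In 19 of those 30 the groups did not overlap with bERKO higher, against 11.4% of all genes. Both lists were chosen with earlier results of these data known, so these shares are no independent result. Cdh11, a mesenchymal cadherin, read 4.94, 4.87 and 4.80 in WT and 8.20, 8.0 and 7.04 in bERKO, a rise of 2.87 (SE 0.35, limma adjusted p = 0.00403). Slit2, a secreted guidance ligand of Robo receptors, read 6.52, 6.45 and 6.75 against 9.72, 9.77 and 8.14, a rise of 2.64. Its lowest bERKO value was on replicate 3, and 1 of its 3 probe sets was called, with changes from 0.20 to 2.64. Together with Mpzl2, Lrrn3 and Cadm3, described below, the calls of Cdh11 and Slit2 held whichever array was left out. Sema3a, a secreted semaphorin, read 5.83, 6.49 and 7.79 against 9.63, 9.49 and 9.53, and its receptor gene Nrp1 read 5.19, 5.92 and 5.95 against 9.35, 9.82 and 7.37. Both passed with all arrays only, as the changes without WT hCG replicate 1 were 2.41 and 2.91 (limma adjusted p = 0.0566 and 0.0963). Nrp2, another semaphorin receptor, rose by 2.21, but its probe sets ranged from -0.48 to 2.21. Adcyap1, the neuropeptide PACAP that granulosa cells make at ovulation, read 5.15, 7.29 and 10.81 in WT and 12.14, 12.31 and 12.55 in bERKO. The WT arrays spread over more than 5, the bERKO arrays were within 0.5 of each other, and the change of 4.58 became 3.28 without WT hCG replicate 1 (limma adjusted p = 0.127).

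Cldn11, a claudin best known from Sertoli cells and myelin, read 9.81, 9.59 and 8.05 in WT and 5.94, 5.92 and 5.30 in bERKO (change -3.43), while Ocln, occludin, had a rise of 1.70. Neither was called without WT hCG replicate 1, with changes of -3.10 and 1.58 (limma adjusted p = 0.103 and 0.153). Gja1, the main gap junction gene of granulosa cells, had a change of -0.36 and Cdh2, N-cadherin, of -0.06, and neither was called. Of 24 basement membrane and matrix genes 1 rose and 1 fell (8.33%, median 0.61). Lama1, a laminin chain, read 11.20, 11.28 and 10.68 in WT and 8.66, 9.21 and 9.34 in bERKO, a fall of 1.98 (SE 0.30, limma adjusted p = 0.00785) that held whichever array was left out. Sparc, a matricellular protein, read 11.14, 11.88 and 11.41 against 13.86, 13.79 and 12.37, at the edge of the threshold (change 1.86, limma adjusted p = 0.05). Its change of 1.70 without WT hCG replicate 1 did not pass (limma adjusted p = 0.163), and its probe sets ranged from -0.44 to 1.86.

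The growth factor, cell cycle and stress lists had from 1 to 4 calls each, to be read against 3.09% of all genes. Of 36 genes of inhibin, activin, BMP and TGF-beta signalling, 0 rose and 4 fell (11.1%, median -0.03). Beside Inhbb these were Tgfbr3, betaglycan, the coreceptor through which inhibin acts, at 10.48, 9.89 and 9.80 in WT and 8.36, 8.49 and 8.66 in bERKO, Bmpr1b, a BMP receptor, at 11.86, 10.90 and 11.91 against 9.71, 10.35 and 10.42, and Id3, a BMP target. Without WT hCG replicate 1 the changes of Tgfbr3, Bmpr1b and Id3 were -1.34, -1.24 and -1.23 and none passed (limma adjusted p = 0.0566, 0.14 and 0.104). Mcm6, a replication helicase subunit, was the only called gene of 39 in DNA replication and mitosis (2.56%, median -0.19), with a change of -1.20 and probe sets from -1.47 to 0.30. Egln3, a HIF prolyl hydroxylase, read 8.53, 8.61 and 9.28 against 11.06, 10.64 and 11.69. With Ndrg1 (change 1.77, probe sets from -0.33 to 1.77) it made up the 2 rises among 27 hypoxia and glycolysis genes (7.41%, median 0.25). Nfkbiz, a nuclear regulator of NF-kappa-B, read 7.93, 8.40 and 9.19 against 10.45, 10.59 and 10.65 and with Il6 made up the 2 rises among 30 cytokine and innate sensing genes (6.67%, median 0.35). Aldh1a1, a retinaldehyde dehydrogenase, was the 1 called gene of 21 in retinoid metabolism (4.76%, median 0.02), at 13.21, 12.75 and 12.67 against 11.88, 11.87 and 11.05. Among 17 angiogenic ligands and their enzymes (11.8%, median 0.38) Ece1, endothelin-converting enzyme, fell by 1.39 and Apln, apelin, rose by 2.47. Bcl2l1 was the 1 called gene of 22 in the BCL2 family and cell death list (4.55%, median -0.25). Bcl2l1 was still called when WT hCG replicate 1 was left out, whereas Mcm6, Egln3, Ndrg1, Nfkbiz, Aldh1a1, Ece1 and Apln were not, with limma adjusted p from 0.0523 to 0.149.

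In 4 more pathway lists limma called 0 genes. They were Wnt signalling (23 measured, median 0.08), the IGF system (17, median 0.52), nuclear receptors and coregulators (30, median -0.10) and heat shock and unfolded protein response (21, median 0.20). At an unadjusted p under 0.05 the counts were 7, 6, 8 and 4, to be read against 17.5% over the whole table. The smallest p among them belonged to Wnt5a, a non-canonical Wnt ligand, at 5.48, 7.43 and 6.44 in WT and 9.63, 9.96 and 7.70 in bERKO (change 2.64, limma adjusted p = 0.0511). Sfrp2 had a change of 3.58, Igfbp7 of 3.10, Pappa, the IGF-binding protein protease, of 2.32, Rora of 2.44, Hspa1b of -1.66 and Dnajb9 of 0.76, with limma adjusted p from 0.0625 to 0.144.

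**Figure D3:**
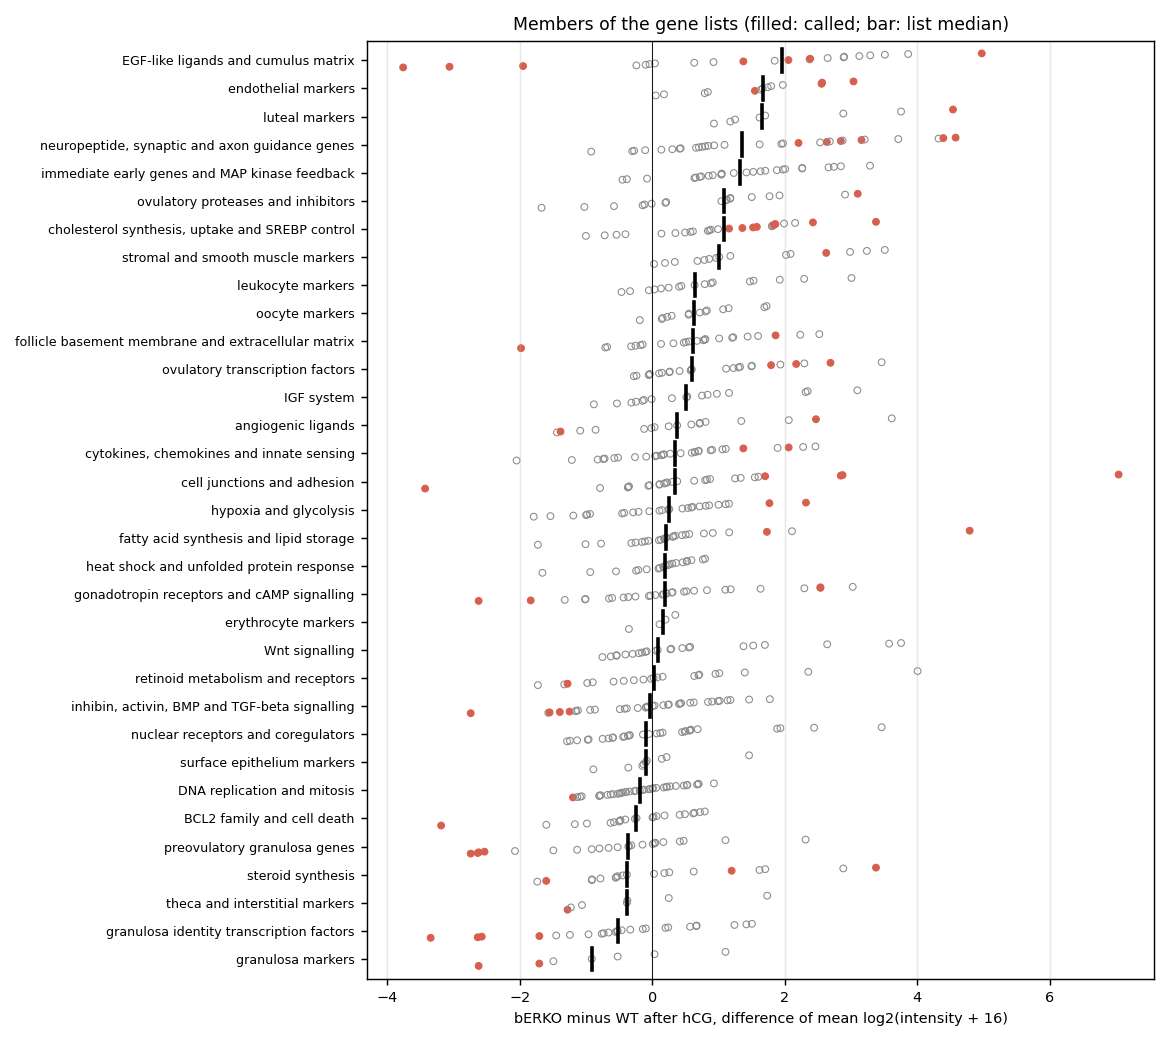
Change of each measured member of the 33 gene lists, bERKO minus WT after hCG on the log2(intensity + 16) scale. Each circle is a gene, filled circles are called genes and the black bar is the list median, from 1.95 for EGF-like ligands and cumulus matrix at the top to -0.91 for granulosa markers at the bottom.

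AP-1 and CREB proteins are known mediators of luteinizing hormone signals at promoters, and 5 promoters are shown here because they hold the letters of these motifs in genes that the comparison named. RefSeq promoter windows (GRCm38.p6, 250 bases before to 50 after the start) were matched to 14367 of the 18193 genes, among them 215 that rose and 225 that fell, and both strands were searched for 8 motifs. The shares are of genes with the letters in at least 1 of their windows, and 2647 genes had several windows. AP-1 letters (TGANTCA) were held by 7.5% of all genes with a window, by 11.2% of those that rose (24 of 215) and by 3.56% of those that fell (8 of 225). In genes called with and without WT hCG replicate 1 the counts were 5 of 50 and 1 of 57. The cyclic AMP response element (TGACGTCA) was held by 2.94% of all genes with a window, 5.58% of those that rose and 2.22% of those that fell. The estrogen response element (GGTCA and TGACC with any 3 bases between them) was held by 0.0348% of all genes with a window and by 0 of either group. For the sterol regulatory element (TCACNCCAC) the shares were 1.45%, 1.4% and 0.889%. The SF-1 site (TCAAGGTCA) ends in the letters that open the estrogen response element, and its shares were 0.404%, 0.465% and 0. The common motifs were the CCAAT box (CCAAT) at 42.0%, 42.8% and 44.9%, the GC box (GGGCGG) at 57.5%, 59.5% and 66.7% and the E-box (CACGTG) at 10.3%, 11.2% and 11.1%. A match is a description of letters and not evidence of a bound site. Of the 8 called cholesterol genes 5 had a window, and 0 of those searched for this count held the sterol regulatory element letters. Stard4 was left out of that search, so the count says nothing about its promoter. The windows below run 5′ to 3′ with the motif in capitals: AP-1 letters in Dhcr7, the sterol enzyme (chr7:143829964-143830263, plus strand), in Tchhl1 (chr3:93468504-93468803, plus strand), in Cadm3 (chr1:173367646-173367945, minus strand) and in Aldh1a1, a gene that fell (chr19:20492333-20492632, plus strand), and the cyclic AMP response element in Flt1, an endothelial marker that rose (chr5:147725962-147726261, minus strand). Of the named genes searched, Il6 and Me1, not printed, also held AP-1 letters.
Dhcr7: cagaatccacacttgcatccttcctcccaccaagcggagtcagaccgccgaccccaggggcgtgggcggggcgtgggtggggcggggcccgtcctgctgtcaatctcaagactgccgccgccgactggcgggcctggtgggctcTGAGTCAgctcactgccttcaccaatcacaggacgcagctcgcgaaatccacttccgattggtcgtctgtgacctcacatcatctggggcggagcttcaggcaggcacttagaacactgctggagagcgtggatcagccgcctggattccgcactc
Tchhl1: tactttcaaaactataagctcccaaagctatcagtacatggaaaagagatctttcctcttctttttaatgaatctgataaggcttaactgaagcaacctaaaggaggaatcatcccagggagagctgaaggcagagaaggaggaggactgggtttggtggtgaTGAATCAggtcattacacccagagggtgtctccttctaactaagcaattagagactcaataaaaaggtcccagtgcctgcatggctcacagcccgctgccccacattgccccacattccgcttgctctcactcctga
Cadm3: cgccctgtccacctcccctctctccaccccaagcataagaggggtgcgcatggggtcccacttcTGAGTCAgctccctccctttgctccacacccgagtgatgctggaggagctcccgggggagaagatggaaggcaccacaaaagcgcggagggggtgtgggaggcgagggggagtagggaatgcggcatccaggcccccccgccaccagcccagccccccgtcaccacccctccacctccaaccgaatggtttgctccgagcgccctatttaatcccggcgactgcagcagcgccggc
Aldh1a1: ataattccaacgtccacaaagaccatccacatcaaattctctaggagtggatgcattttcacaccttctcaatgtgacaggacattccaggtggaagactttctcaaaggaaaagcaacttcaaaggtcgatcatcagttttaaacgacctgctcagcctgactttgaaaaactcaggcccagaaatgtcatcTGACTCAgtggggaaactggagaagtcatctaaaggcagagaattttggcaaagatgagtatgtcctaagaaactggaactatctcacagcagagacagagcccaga
Flt1: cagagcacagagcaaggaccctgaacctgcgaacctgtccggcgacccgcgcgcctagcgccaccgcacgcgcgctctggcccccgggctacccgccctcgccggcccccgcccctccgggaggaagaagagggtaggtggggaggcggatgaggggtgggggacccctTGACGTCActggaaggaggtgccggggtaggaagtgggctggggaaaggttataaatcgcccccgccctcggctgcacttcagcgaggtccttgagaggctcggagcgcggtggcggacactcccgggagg

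After PMSG alone 2 genes differed between genotypes (0.011%), Cadm3 and the immunoglobulin kappa gene Igk, and the count ran from 0, without bERKO PMSG replicate 3, to 26, without WT PMSG replicate 3. The difference between the hCG and the PMSG genotype differences, the interaction, was called for 239 genes (1.31%), or 115 (0.632%) without WT hCG replicate 1. It was 118, 210 and 141 without bERKO PMSG replicates 1, 2 and 3, and 108, 133 and 90 without WT PMSG replicates 1, 2 and 3. Without WT hCG replicates 2 and 3 it was 125 and 408, and without bERKO hCG replicates 1, 2 and 3 it was 89, 81 and 176. On the PMSG arrays the oocyte marker list averaged 5.68, 6.11 and 8.23 in WT and 8.65, 8.64 and 10.05 in bERKO, with a median difference of 2.37, and its part in the interaction was not tested. Among the 282 genes that rose after hCG, 92 had a called interaction, and among the 280 that fell, 91 had. The median PMSG difference was -0.23 for the genes that rose and 0.15 for those that fell, against 0.04 for all genes. Since the interaction contains the hCG difference, these counts are not independent of it.

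Cadm3, a nectin-like adhesion protein of neurons, had genotype differences of opposite sign under the 2 treatments. After PMSG it read 9.15, 7.50 and 8.44 in WT and 4.05, 4.15 and 4.05, the floor, in bERKO, a difference of -4.28 (limma adjusted p = 0.0123); it did not pass without bERKO PMSG replicate 3, bERKO PMSG replicate 1 or WT PMSG replicate 1 (limma adjusted p = 0.0798, 0.0591 and 0.0573), with differences of -4.26, -4.26 and -3.88. After hCG it read 4.10, 4.86 and 5.74 in WT and 7.27, 7.94 and 8.03 in bERKO, a rise of 2.85, or 2.45 without WT hCG replicate 1 (limma adjusted p = 0.0105 and 0.0468). The interaction was 7.12 (SE 0.66, limma adjusted p = 0.00364), and all 3 probe sets were called after hCG. Lrrtm3 read 8.86, 7.73 and 8.60 in WT and 5.47, 6.93 and 4.29 in bERKO after PMSG, a difference of -2.84 that did not pass (limma adjusted p = 0.136), and its interaction was 6.35 (limma adjusted p = 0.00819). Ptgfr, the prostaglandin F receptor of luteal cells, read 8.12, 5.91 and 8.65 and 5.20, 4.06 and 5.86 after PMSG, and 5.04, 7.33 and 7.69 and 11.35, 11.53 and 10.81 after hCG. Its hCG change was 4.54 (SE 0.79, limma adjusted p = 0.0147) and its interaction 7.06; without WT hCG replicate 1 the change was 3.72 and just missed the threshold (limma adjusted p = 0.0524), while the interaction of 6.24 passed (limma adjusted p = 0.029). Esr1 had a PMSG difference of 1.31 and an hCG change of -1.24, with an interaction of -2.55 (limma adjusted p = 0.0236, or 0.052 without WT hCG replicate 1), and it was lost in 7 of the 12 fits that left out 1 array. The interactions of Cadm3, Lrrtm3 and Ptgfr passed in all 12.

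Foxo1 read 14.46, 14.47 and 14.27 in WT and 14.44, 14.37 and 14.46 in bERKO after PMSG, against 14.15, 13.91 and 14.23 and then 11.75, 11.84 and 10.80 after hCG, so the WT hCG values were close to the PMSG values and the bERKO hCG values were not. Bcl2l1 read 9.35, 8.35 and 8.73 and 8.50, 8.96 and 8.87 after PMSG, and Hpgd read 11.18, 12.005 and 11.82 and 12.46, 12.20 and 12.43. Their interactions were -2.66, -3.16 and -3.76 (limma adjusted p = 0.0135, 0.00894 and 0.00819), and all 3 passed whichever of the 12 arrays was left out. For Hpgd the PMSG groups did not overlap either, with bERKO higher by 0.70, which did not pass (limma adjusted p = 0.586). Id3 read 12.34, 12.14 and 11.85 against 10.12, 9.96 and 10.12 after PMSG, a difference of -2.05 that did not pass (limma adjusted p = 0.0614), and 11.13, 10.93 and 11.23 against 9.54, 9.60 and 10.40 after hCG, where the call was lost without WT hCG replicate 1, and its interaction of 0.80 did not pass (limma adjusted p = 0.37).

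**Figure D4:**
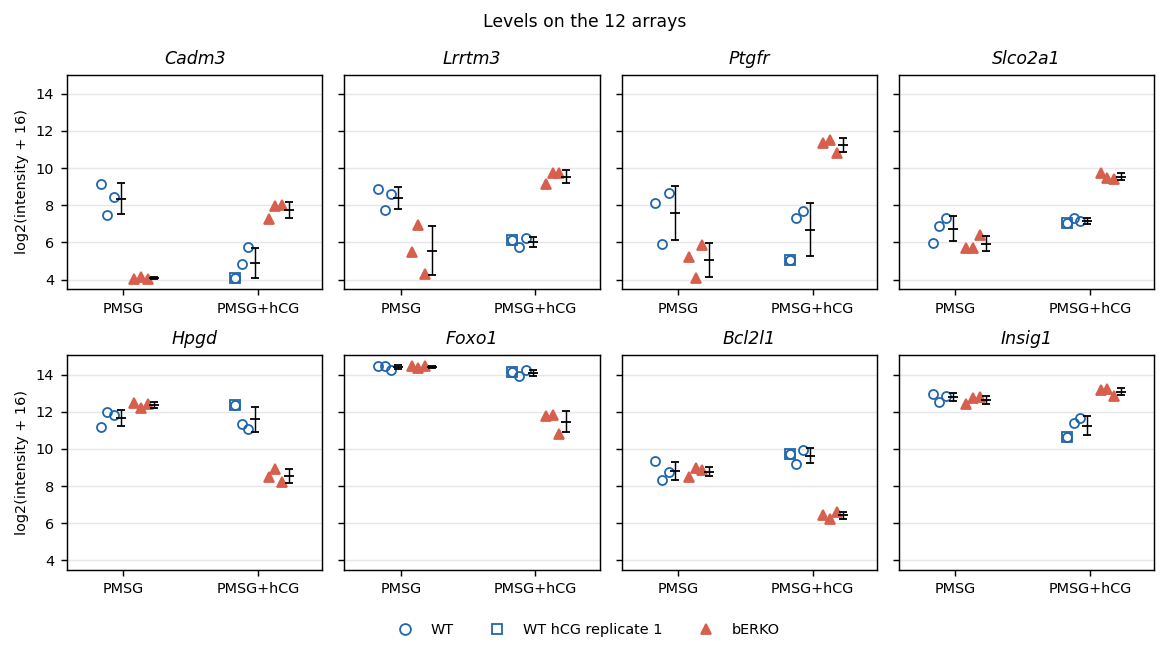
Level of 8 genes on all 12 arrays, as log2(intensity + 16), after PMSG and after PMSG+hCG. Open blue symbols are WT arrays, with WT hCG replicate 1 as a square, red triangles are bERKO arrays, and bars are the mean ± SD of 3 arrays; Cadm3 and Lrrtm3 are higher in WT after PMSG and higher in bERKO after hCG, while Foxo1 is alike in the PMSG groups and lower on the bERKO hCG arrays.

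Markers of other cells differed between the groups as well. In a mixture of cells, more cells of a type and more RNA per cell cannot be told apart. Of 13 endothelial markers 4 rose and 0 fell (30.8%, against 3.09% of all genes), with a median of 1.67, or 1.74 without WT hCG replicate 1. All 13 had a change above 0, against 8350 of all 18193 genes. Emcn, endomucin, read 6.02, 5.41 and 4.999 in WT and 8.04, 8.60 and 7.45 in bERKO, and Cdh5, VE-cadherin, read 4.34, 6.20 and 5.74 against 8.24, 8.97 and 8.19. Both were called whichever array was left out, whereas the VEGF receptor genes Kdr and Flt1, with changes of 2.57 and 1.55, were not called without WT hCG replicate 1 (limma adjusted p = 0.11 and 0.0757). The list averaged 5.86, 5.81 and 5.53 on the WT arrays and 7.35, 7.79 and 6.76 on the bERKO arrays. Of 15 stromal and smooth muscle markers 1 rose (6.67%, median 1.01), namely Thy1, at 4.41, 4.13 and 4.12 against 7.47, 6.39 and 6.68, and all 15 had a change above 0. Their average was 6.59, 7.19 and 6.87 in WT and 8.80, 8.64 and 7.72 in bERKO, and 2 of the 15 were under 5 on all hCG arrays. Thy1 was not called when WT hCG replicate 1 was left out (limma adjusted p = 0.0701). Among the collagen genes Col1a1 and Col3a1 had changes of 2.99 and 3.51 and did not pass.

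The bERKO arrays were not equal in these markers. Replicate 3 was the lowest of the bERKO arrays for the endothelial, stromal and leukocyte lists. Among the genes described it was also the lowest for some, such as Cemip, Lipg, Slit2, Nrp1, Hsd17b7, Lrrn1, Bace2, Kcnj16, Rab27a and Cdh11. For others, such as Mpzl2, Tchhl1, Rassf9 and Lrrtm3, it was the highest bERKO array. Among all 282 genes that rose it was the lowest bERKO array for 43.6%, against 40.0% of all genes. The part of endothelial and stromal cells in the adhesion, guidance and matrix genes that rose was not tested. Of 17 leukocyte markers limma called 0, with 5 at an unadjusted p under 0.05, against 17.5% of all genes (median 0.64), with averages of 5.57, 5.69 and 5.48 in WT and 6.69, 6.75 and 5.75 in bERKO. The members with the smallest p, Cd52 and Lyz2, had changes of 1.93 and 2.29 (limma adjusted p = 0.0518 and 0.0717). Of 14 oocyte markers limma called 0, with 1 at an unadjusted p under 0.05 (median 0.64), with averages of 6.21, 6.55 and 5.87 in WT and 6.60, 6.47 and 7.64 in bERKO. Ooep and Zp3 came nearest, with changes of 1.69 and 1.73.

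Of 7 granulosa markers 2 fell, Fshr and Foxl2 (28.6%, median -0.91 with and without WT hCG replicate 1), and neither call held without that array. Of 8 luteal markers 1 rose, Ptgfr (12.5%, against 3.09% of all genes), with a median of 1.66, or 1.07 without WT hCG replicate 1. All 8 had a change above 0, against 8350 of all 18193 genes. The luteal list averaged 7.90, 10.10 and 10.61 on the WT arrays and 11.79, 11.90 and 11.62 on the bERKO arrays, so that WT hCG replicate 1 was more than 2 below the other WT arrays and every bERKO array was above every WT array. Of 7 theca and interstitial markers 1 fell, Aldh1a1 (14.3%, median -0.38), which granulosa cells also express. Of 4 erythrocyte and 9 surface epithelium markers limma called 0, with medians of 0.16 and -0.10 and with 0 and 1 genes at an unadjusted p under 0.05. Slc4a1 and Alas2 had changes of -0.35 and 0.35, and Krt19 and Krt8 of 1.46 and -0.89, and none passed.

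**Figure D5:**
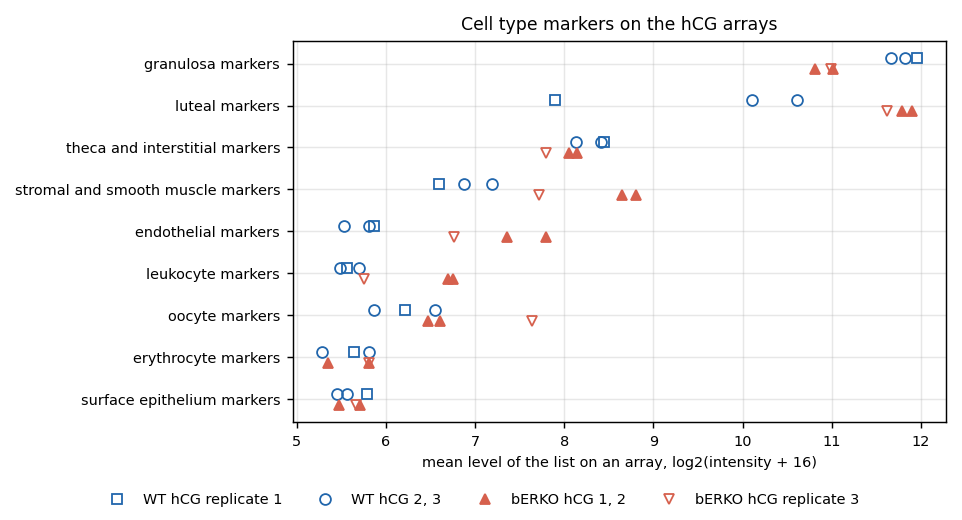
Mean level of each list of cell type markers on each hCG array, as log2(intensity + 16) averaged over the measured members. Open blue symbols are WT arrays and red triangles bERKO arrays, with bERKO replicate 3 as an open triangle; the granulosa list is lower in bERKO, the luteal, stromal and endothelial lists are higher in bERKO, and levels of different lists are not comparable.

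The neighbourhood of Esr2 on chromosome 12 was also examined. Of the 40 measured genes nearest to Esr2, 20 on each side, limma called 0 after hCG, and 7 had an unadjusted p under 0.05 (17.5%, the same share as among all genes, 17.5%).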

How the data were processed

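The authors deposited linear intensities of probe sets on one-colour Affymetrix mouse arrays, scaled to a 2% trimmed mean of 500.0 per array. The sources used here do not name the software. Of 45101 probe sets 64 controls were left out, and 34945 of the rest named 1 gene in the platform annotation, 932 several and 9160 none; 34741 matched a RefSeq record. The probe set with the brightest average stood for each of 18193 genes. Lhcgr and Cyp19a1 had no one-gene probe set and are not analysed here. Median intensity per array ran from 49.1 to 112.8, and the number of arrays limits the precision.

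The deposited intensities were quantile normalized and then taken as log2(intensity + 16). These values were fitted on 4 groups of 3 arrays by limma 3.58.1 in R 4.3.3 (statmod 1.5.0). Tests were two-sided, and p was adjusted by Benjamini-Hochberg over all genes with a threshold of 0.05. The fit was tested on simulated data. Figures and motif searches used Python 3.11.15, pandas 2.3.3 and matplotlib 3.10.9.

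Alternatives left out each array, used the values as deposited, centred medians, offsets of 1 and 64, a filter at a group mean of 7, the 6 hCG arrays alone, the mean of probe sets or every probe set, array weights, a variance trend and a replicate block. Named genes were the 12 largest rises and 12 largest falls called with and without WT hCG replicate 1 and with separate groups, up to 4 called members of each of 33 lists (2 by p where none was called) and 10 further genes, 97 in all. Any other gene in the text was picked after seeing its values. The comparison, its lists and its motifs were chosen with earlier results of these data known.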

Additional observations from a re-analysis of the deposited data

Results flagged for a closer look

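For 44 of the 97 named genes the genotype difference after hCG differed from that after PMSG by limma's test of the difference itself, with adjusted p up to 0.05. Over all 18193 genes the same test called 239 (1.31%), or 0.632% without WT hCG replicate 1. The value in parentheses is the hCG difference minus the PMSG difference on the log2 scale. It was above 0 for 26 genes. The values from 5 upwards were those of Cemip (7.43), Cadm3 (7.12), Mpzl2 (7.06), Ptgfr (7.06), Lipg (6.60), Lrrtm3 (6.35), Emb (5.98), Lrrn3 (5.30) and Adamts4 (5.18). Values between 3.5 and 5 were those of Bace2 (4.66), Rassf9 (4.62), Lrrn1 (4.38), Rab27a (4.08), Cdh5 (4.03), Hsd17b7 (3.86), Slit2 (3.84) and Emcn (3.70). Smaller positive values were those of Slco2a1 (3.19), Kcnj16 (3.16), Sparc (3.15), Pde4b (2.77), Ndrg1 (2.73), Egln3 (2.68), Nfkbiz (2.60), Idi1 (2.30) and Insig1 (1.99). The value was below 0 for 18 genes. The larger falls were those of Cldn11 (-4.77), Tdrd5 (-4.36), Wipf3 (-4.28), St8sia1 (-4.16), Rassf2 (-3.84), Hpgd (-3.76), Cbfa2t3 (-3.68) and Acacb (-3.58). The smaller ones were those of Eda2r (-3.37), Mtcl1 (-3.26), Bcl2l1 (-3.16), Cables1 (-3.09), Nat8f3 (-2.67), Foxo1 (-2.66), Esr1 (-2.55), Inhbb (-2.44), Lama1 (-2.26) and Ece1 (-1.65). Without WT hCG replicate 1, 25 of the 44 passed, and those that did not included Cemip, Lipg, Adamts4, Bace2, Insig1 and Esr1. The 44 genes were named for their hCG difference, which the tested value contains, so the number of them is no independent result.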

How the results depend on the processing

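The count of genes that differed after hCG, 562, ranged from 141 to 684 over the fits that left out 1 array. It was 141 without WT hCG replicate 1, 307 without WT hCG replicate 2, and 143, 172 and 255 without bERKO hCG replicates 1, 2 and 3. It was 225 with an offset of 1, 882 with an offset of 64, 875 with the filter on dim genes, 219 on the 6 hCG arrays alone, 1239 with array weights and 947 with a variance trend. The interaction count, 239, ranged from 81 to 408 over the fits that left out 1 array. The labels number the replicates, and same-numbered arrays deviated from their group means with correlations of -0.0095 to 0.119. Those of other pairs ran from -0.115 to 0.0636. With 3 arrays per group these values cannot tell whether equal numbers mark paired samples. With the replicate block 409 genes were called after hCG and 129 in the interaction. Over all other settings 1756 values of named genes kept direction and side of the threshold, 314 lost the call, 54 gained one and 4 changed sign. Of the named calls, 36 of 73 held whichever array was left out. The 4 that changed sign were Slc4a1, with 0.025 without WT hCG replicate 2 and 0.025 for the mean of probe sets, and Alas2, with -0.13 without WT hCG replicate 1 and -0.020 with array weights; leaving out WT hCG replicate 3 gave them -0.77 and 0.74, and neither gene was called. The cause of these shifts was not tested.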

Other observations

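Among the 107 genes called whichever array was left out, several that belong to no list above have known parts in signalling. They were chosen after their values were seen, and their changes are from the same fit. Wnt10b, a canonical Wnt ligand, read 4.68, 4.30 and 4.28 in WT and 7.83, 7.54 and 6.92 in bERKO after hCG, a rise of 3.01 (SE 0.32, limma adjusted p = 0.0015). Dhh, desert hedgehog, through which granulosa cells signal to theca cells, read 11.41, 10.59 and 10.74 against 7.78, 8.09 and 9.30, a fall of 2.52, but its second probe set had a change of 0.30. Npr1, the receptor of atrial natriuretic peptide, read 4.16, 6.10 and 5.88 against 8.29, 8.34 and 8.97, and Lrp8, a reelin and apolipoprotein E receptor, read 8.04, 7.87 and 9.27 against 10.90, 10.97 and 10.58.

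The glutamate receptor subunit gene Grin2b read 5.42, 5.79 and 7.81 in WT and 9.97, 10.01 and 10.17 in bERKO, and all 4 of its probe sets had a change above 0, from 1.06 to 3.71. Mras, a Ras-related GTPase, read 12.95, 11.92 and 11.51 against 9.28, 9.03 and 9.13, a fall of 2.98 that its second probe set put at -1.45. Nfia, a nuclear factor I gene, fell by 1.91, from 11.51, 11.83 and 11.98 to 9.75, 10.17 and 9.69. Sytl4, an effector of Rab27 proteins, fell by 2.42 where Rab27a rose. Vcl, vinculin, which links adhesion sites to actin, was bright in both and rose by 1.49, from 11.08, 11.30 and 11.58 to 12.75, 12.78 and 12.92. Of the 107 genes, 76 were also called under every other setting of the gene fit.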
